A study of Homo sapiens with 6 samples.

Results

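The genes described here lie along a stretch of the long arm of chromosome 1, in bands 1q25 to 1q31, from RALGPS2 to C1orf53. Another 33 measured genes lie between them and were not on the list. The listed genes were chosen from these same arrays as a run of which many were higher in MCF10A-SNAI1 than in MCF10A cells. The difference between the lines is therefore described here and not tested for them. Of 37 listed genes, 36 had a probe set with exactly 1 gene symbol, out of 18417 genes measured in this way. The missing gene was RNF2, which is not analysed here. MCF10A is a line of human breast epithelium that was immortalized without becoming tumorigenic, and the control arrays came from untransfected cells. MCF10A-SNAI1 cells are MCF10A cells transfected with the pBeta-SNAI1-Flag plasmid, in which a CMV enhancer with the chicken beta-actin promoter drives SNAI1, and then selected with puromycin. The sources used here do not say whether that line is a single clone. Both lines were kept in mammary epithelial growth medium with cholera toxin, and 3 arrays were hybridised per line with total RNA. The plasmid, the drug selection and the line's own history cannot be told apart from SNAI1. The arrays hold no vector control, and the methods name different sources for the lines. The untransfected cells came from ATCC by way of a colleague in Bonn, and the SNAI1 line was made at the University of Florida. Whether both go back to the same MCF10A culture is not stated. The arrays are named biological replicates in the series, and any p-value measures only the spread between them.

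The deposited values are log2 expression values, and every difference is MCF10A-SNAI1 minus MCF10A on that scale. SNAI1 had 5.80, 5.73 and 5.77 on the MCF10A arrays and 10.50, 10.53 and 10.50 on the MCF10A-SNAI1 arrays, so its level followed the labels. Array medians were 6.04 to 6.09. Of the basal mammary markers, 5 of 7 were measured and all 5 were lower in MCF10A-SNAI1 cells, with a mean level per array of 12.11 to 12.17 in MCF10A and 7.72 to 7.80 in MCF10A-SNAI1. Of the luminal and general epithelial markers, 2 of 7 were called lower, CDH1 and EPCAM, while KRT8 lay higher under 2-fold (11.12 and 12.07), and the mean level of the list was 8.20 to 8.24 in MCF10A and 7.02 to 7.18 in MCF10A-SNAI1. The mesenchymal list had 3 of 7 called higher, CDH2, ZEB1 and DCN, with a mean level of 6.78 to 6.89 against 8.55 to 8.59. That mean rests largely on DCN, which went from 3.83, in the lowest 20% of values, to 12.09. VIM (11.62 and 11.67) and THY1 (5.29 and 5.37) overlapped between the lines, COL1A2 differed by 0.25, and FAP lay lower (8.15 and 7.72). Leukocyte and endothelial lists had no called member, at mean levels of 5.22 to 5.32 against 5.46 to 5.58 and of 4.95 to 5.04 against 5.02 to 5.11. In the leukocyte list CD68, which many other cell types also express, differed by 0.99, and the leukocyte marker PTPRC was at 3.23 and 3.22. The part that these marker differences have in the 1q values was not tested, and in bulk RNA fewer cells of a type and less RNA per cell cannot be told apart.

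Genes that lie side by side on a chromosome need not share a function, and the run from RALGPS2 to C1orf53 is a mixed set. It includes exchange factors for Ral GTPases, regulators of G protein signaling (RGS proteins, which speed up GTP hydrolysis on G alpha subunits), a laminin chain, the enzymes of the first steps of prostaglandin synthesis, and proteins of the nuclear envelope, nuclear pore, centrosome and spindle. SNAI1 is a zinc finger repressor that binds the E-box CAGGTG in its target promoters, as in that of E-cadherin.

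Promoter sequence was taken from a table of RefSeq promoters (GRCh38.p14), which held 34 of the 36 genes, all but CDC73 and TSEN15. The 250 bases before the start were searched on both strands. CAGGTG or its complement CACCTG was present in 6 of 34 of these promoters (17.6%) and in 17.5% of 27195 promoters in the table. A different E-box, CACGTG, which reads the same on both strands, was present in 6 of 34 (17.6%), against 6.5% of all. Any CANNTG, which covers each of these motifs, was present in 73.5% against 62.2%. The promoters compared were not matched for expression level or base composition, and these shares were not tested. A match is a description of the letters, not a bound site. The promoters of the 3 genes with the largest positive difference and of the neighbours PTGS2 and PLA2G4A, which differed in opposite directions, are printed below, 5′ to 3′, with CANNTG in capitals. B3GALT2 is at chr1:193186614-193186863 on the minus strand, RGL1 at chr1:183635859-183636108 on the plus strand, RGS2 at chr1:192808789-192809038 on the plus strand, PTGS2 at chr1:186680424-186680673 on the minus strand and PLA2G4A at chr1:186828699-186828948 on the plus strand.
B3GALT2: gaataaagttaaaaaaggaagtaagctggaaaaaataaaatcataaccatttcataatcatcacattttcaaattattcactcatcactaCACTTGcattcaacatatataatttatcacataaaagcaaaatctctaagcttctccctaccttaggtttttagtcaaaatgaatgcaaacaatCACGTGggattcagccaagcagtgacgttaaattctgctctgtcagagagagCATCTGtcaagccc
RGL1: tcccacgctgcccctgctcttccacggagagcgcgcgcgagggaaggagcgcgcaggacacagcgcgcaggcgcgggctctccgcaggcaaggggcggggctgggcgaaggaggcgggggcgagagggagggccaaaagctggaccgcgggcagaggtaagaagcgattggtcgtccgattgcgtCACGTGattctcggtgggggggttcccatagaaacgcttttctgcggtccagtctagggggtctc
RGS2: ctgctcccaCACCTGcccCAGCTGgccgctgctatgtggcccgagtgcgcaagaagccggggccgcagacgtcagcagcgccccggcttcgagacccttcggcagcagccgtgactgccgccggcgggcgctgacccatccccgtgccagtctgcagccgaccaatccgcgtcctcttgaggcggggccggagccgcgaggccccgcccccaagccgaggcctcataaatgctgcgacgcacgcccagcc
PTGS2: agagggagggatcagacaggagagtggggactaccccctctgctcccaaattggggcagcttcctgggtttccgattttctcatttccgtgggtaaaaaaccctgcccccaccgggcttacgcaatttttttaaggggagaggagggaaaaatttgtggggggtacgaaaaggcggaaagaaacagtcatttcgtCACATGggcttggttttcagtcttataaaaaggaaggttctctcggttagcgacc
PLA2G4A: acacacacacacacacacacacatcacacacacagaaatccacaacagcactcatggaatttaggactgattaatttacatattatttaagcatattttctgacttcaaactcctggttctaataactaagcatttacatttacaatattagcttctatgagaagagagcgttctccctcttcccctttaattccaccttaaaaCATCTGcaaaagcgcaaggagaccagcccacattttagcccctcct
The RGS2 stretch holds CACCTG beside CAGCTG, and those of B3GALT2 and RGL1 each hold CACGTG. PTGS2 and PLA2G4A each have a single CANNTG of another kind.

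Across the 36 genes the median difference was 0.46, with quartiles of 0.18 and 0.75, beside a median of -0.01 over all 18417 genes. The difference was above 0 in 31 of the 36 and below 0 in 5, so the run as a whole was not uniformly raised. It was above 0.3 in 22 of the 36 (61.1%), against 15.4% of all genes and 20.4% of those above the median level of all probe sets (6.06). Between 0.3 and 1 there were 17 genes, above 1 there were 5, and between 0 and 0.3 there were 9. In 27 genes every MCF10A-SNAI1 array lay above every MCF10A array, as did 23.7% of all genes. In 3 genes every MCF10A-SNAI1 array lay below, as did 24.6% of all genes, and 6 genes overlapped. At an adjusted p below 0.01 and more than 2-fold in limma, 5 of the 36 were higher (3.10% of all genes) and 1 was lower (2.54%), 6 in either direction (5.64%). Without the fold threshold, 20 were higher (12.1% of all genes) and 1 was lower (11.2%). Of the 33 listed genes above the median level, 19 were higher and 1 lower in this way, beside 1909 and 1842 of all 11219 such genes. In 24 of those 33 every MCF10A-SNAI1 array lay above every MCF10A array, beside 3519 of the 11219. As the genes were picked on this contrast, nothing is read from these counts. The median level of the 36 genes was 8.67, 8.87 and 8.76 on the MCF10A arrays and 8.93, 9.06 and 9.05 on the MCF10A-SNAI1 arrays, which did not overlap. Without B3GALT2, RGL1, RGS2 and NMNAT2 the median difference was 0.42.

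**Figure D1:**
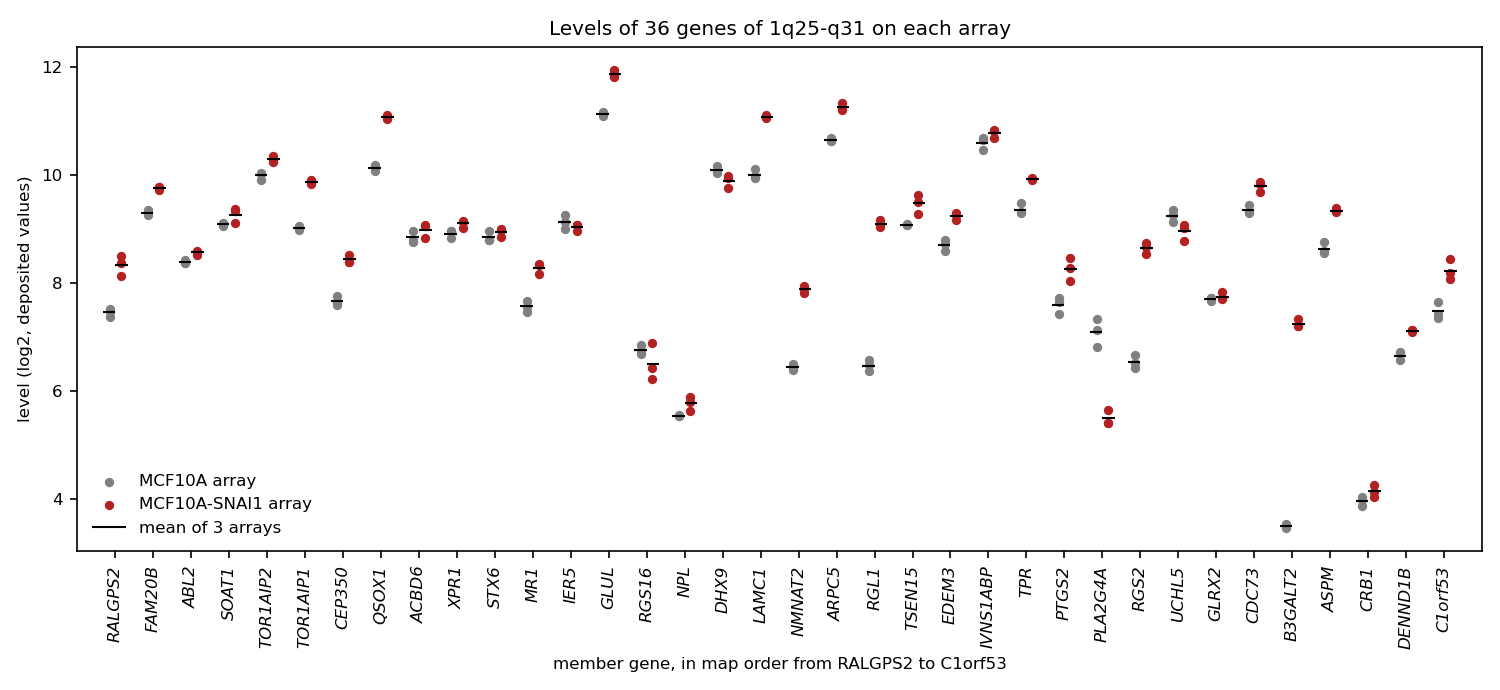
Level on the log2 scale of 36 genes in map order, with a point per array in MCF10A (grey) and MCF10A-SNAI1 (red) and a black line at the mean of 3 arrays. RGL1, RGS2 and B3GALT2 show the widest gaps upward, and PLA2G4A is the gene with a wide gap downward.

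Genes of G protein signaling differed widely among themselves. RGL1, an exchange factor that loads Ral GTPases with GTP, had 6.36, 6.56 and 6.47 in MCF10A and 9.17, 9.07 and 9.04 in MCF10A-SNAI1, a 6.19-fold difference (2.63). The lines did not overlap, and the spread within each (SD 0.101 and 0.0665, n = 3) was small beside the gap. RALGPS2, another Ral exchange factor and the first gene of the run, was at 7.45 ± 0.0784 and 8.33 ± 0.189 (SD, n = 3), a difference of 0.88. RGS2, which acts mainly on Gq, had 6.43, 6.51 and 6.66 in MCF10A and 8.74, 8.66 and 8.54 in MCF10A-SNAI1. All of its MCF10A-SNAI1 arrays were higher, by 2.11 or 4.32-fold. RGS16 had 6.85, 6.74 and 6.68 against 6.88, 6.42 and 6.21, so the lines overlapped, and the MCF10A-SNAI1 arrays were spread (SD 0.343). The run holds 5 further RGS genes that were not on the list, RGS8, RGS18, RGS21, RGS1 and RGS13. Their arrays lay between 2.68 and 5.66 and their differences between -0.18 and 0.07. RGS18, RGS21, RGS1 and RGS13 stand directly before RGS2, and their means lay in the lowest 20% of values in both lines. At such levels a difference between the lines may not show. DENND1B, an exchange factor for Rab35, was at 6.65 and 7.11 (difference 0.46). ABL2, a tyrosine kinase that binds actin, differed by 0.17 and the immediate early gene IER5 by -0.11, with overlapping arrays for IER5.

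Among genes of the matrix and the secretory pathway, B3GALT2 had the largest difference of the run. This galactosyltransferase of the Golgi had 3.46, 3.48 and 3.53 in MCF10A and 7.20, 7.19 and 7.32 in MCF10A-SNAI1, a difference of 3.75 or 13.4-fold. Its MCF10A level lay in the lowest 20% of all values, where the size of the fold can depend on the background correction. In RefSeq B3GALT2 is nested inside CDC73, and CDC73 differed by 0.45, from 9.34 ± 0.0763 to 9.79 ± 0.0964 (SD, n = 3). LAMC1, the laminin gamma 1 chain of basement membranes, had 9.97, 10.10 and 9.93 against 11.06, 11.05 and 11.11. Its arrays separated by line with a difference of 1.07 (2.10-fold). QSOX1, which forms disulfide bonds in secreted proteins, was at 10.12 ± 0.0549 and 11.07 ± 0.0419 (difference 0.94). FAM20B, the xylose kinase of proteoglycan synthesis, differed by 0.46, and EDEM3, which trims mannose from misfolded glycoproteins, by 0.53. STX6, a syntaxin of the trans-Golgi network, differed by 0.09 with overlapping arrays. CRB1, an apical polarity protein, had 3.86, 3.97 and 4.03 against 4.04, 4.25 and 4.12, a difference of 0.18 at levels near the limit of the lowest 20% of values (3.94).

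PTGS2 and PLA2G4A encode cyclooxygenase-2 and the cytosolic phospholipase that releases its substrate, arachidonic acid. No measured gene lay between them, and they differed in opposite directions. PTGS2 had 7.64, 7.71 and 7.42 in MCF10A and 8.04, 8.28 and 8.45 in MCF10A-SNAI1 (difference 0.67). PLA2G4A had 6.81, 7.32 and 7.12 against 5.40, 5.65 and 5.41. It was 3.02-fold lower in MCF10A-SNAI1 (difference -1.60), without overlap, and was the only gene of the 36 called lower.

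Genes of the nuclear envelope, centrosome and cytoskeleton differed by smaller amounts, in 1 direction. TOR1AIP1 and TOR1AIP2 encode the membrane proteins LAP1 and LULL1, which activate torsin ATPases. TOR1AIP1 was at 9.02 ± 0.0393 and 9.87 ± 0.0321 (SD, n = 3), a difference of 0.85. TOR1AIP2, its direct neighbour, differed by 0.30, and by 0.52 on its other probe set. CEP350, a centrosomal protein, differed by 0.77, the spindle protein ASPM by 0.71, and TPR, of the nuclear basket of the pore, by 0.57. ARPC5, a subunit of the actin-nucleating Arp2/3 complex, was at 10.64 ± 0.0258 and 11.25 ± 0.0653 (difference 0.61). In each of these 6 genes all MCF10A-SNAI1 arrays were above all MCF10A arrays.

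Of the metabolic genes, NMNAT2, which makes NAD from nicotinamide mononucleotide, had 6.43, 6.39 and 6.50 in MCF10A and 7.81, 7.89 and 7.93 in MCF10A-SNAI1. The arrays separated by line, with a difference of 1.43 (2.70-fold). GLUL, glutamine synthetase, was at 11.13 and 11.87 (difference 0.74), and its other probe set gave 0.79. RefSeq lists 6 GLUL pseudogenes, so signal of the GLUL probe sets may be shared with copies elsewhere. SOAT1, which esterifies cholesterol, and the acyl-CoA binding protein ACBD6 differed by 0.18 and 0.14, with overlapping arrays. The phosphate exporter XPR1 differed by 0.19, without overlap. NPL, a lyase of sialic acid, had 5.53, 5.54 and 5.55 against 5.80, 5.63 and 5.89, a difference of 0.23. The mitochondrial glutaredoxin GLRX2 differed by 0.04, with overlap. MR1, which presents microbial vitamin B metabolites to T cells, differed by 0.72, and C1orf53, at the end of the run, by 0.75.

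Genes of RNA processing and protein turnover lay on both sides of 0. TSEN15, a subunit of the tRNA splicing endonuclease, differed by 0.39, and the kelch protein gene IVNS1ABP by 0.18. The helicase gene DHX9 was at 10.09 ± 0.0667 and 9.89 ± 0.111 (SD, n = 3), a difference of -0.20. UCHL5, a deubiquitinase of the proteasome, had 9.12, 9.34 and 9.26 against 8.78, 9.06 and 9.01. Its difference of -0.29 was, after that of PLA2G4A, the lowest of the run. For DHX9 and UCHL5 the lines did not overlap.

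Along the map, the 13 listed genes from RALGPS2 to IER5 had a median difference of 0.30, the 9 from GLUL to TSEN15 one of 0.61, and the 14 from EDEM3 to C1orf53 one of 0.50. The 5 listed genes above 1 lay in the middle and last part. Between RALGPS2 and C1orf53 the table held another 33 measured genes that were not on the list, with a median difference of 0.00. Most of them were dim. The 26 at or below the median level of all probe sets (6.06) had a median of -0.01, and the 7 above it had a median of 0.47. Of the 33, 3 were called higher, namely C1orf21 (8.05 and 9.13), KCNT2 (4.73 ± 0.507 and 7.25, SD, n = 3) and ZBTB41 (7.82 and 8.87), and 0 were called lower, beside 3.10% and 2.54% of all genes. KCNT2 encodes a sodium-activated potassium channel and stands next to B3GALT2 in the order of measured genes. Among the 33, ODR4 and RO60 differed by 0.59 and 0.47. Of the 36 genes on the list, 33 lay above the median level, with a median difference of 0.46, against -0.01 for all 11219 genes above it.

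The ends of the run differed from each other in these values. Of the 20 measured genes before it, 5 were above 0.3, and of the 20 after it only 1 was, NEK7, against 15.4% of all genes. At the first end, RALGPS2 differed by 0.88, and the nearest measured genes before it, RALGPS2-AS1 and C1orf220, by 0.11 and 0.36. At the last end, C1orf53 differed by 0.75, and the nearest genes after it were LHX9 at -0.09 and NEK7 at 2.32. NEK7, a mitotic kinase that also serves the NLRP3 inflammasome, was at 9.01 ± 0.147 and 11.33 ± 0.0573 (SD, n = 3) and was not on the list. The 20 measured genes before RALGPS2 had a median difference of 0.08, and the 20 after C1orf53 one of -0.04. Restricted to genes above the median level, these were 0.20 and -0.21, over 10 genes on each side. For comparison, the 1797 other genes of chromosome 1 had a median of 0.00.

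In windows of 15 consecutive genes above the median level, the 26 windows wholly inside the run had medians from 0.18 to 0.61. The 1097 windows wholly outside it on chromosome 1 had medians from -0.43 to 0.71, and 11 of them reached 0.53, the median of the inner windows. These were windows around NOTCH2 and TXNIP and around USF1 and USP21, which lie before RALGPS2 in map order. Taken from NOTCH2 to the gene before RALGPS2, a boundary chosen after the running median was seen, 256 genes above the median level had a median difference of 0.20, and 71.1% of them were above 0. The 656 such genes before NOTCH2 had a median of -0.02 with 47.6% above 0, and the 213 after C1orf53 a median of -0.03 with 46.5% above 0. No test was made of these differences between regions.

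Several of these genes encode parts of a complex or pathway with other genes off the list, and 89 such partner genes were measured. All but TOR3A lie outside the run. They were not on the list and were tested with limma over all probe sets. The partner lists were themselves chosen with earlier results of these data known, so their p-values are not independent of that choice. Of the partner genes, 5 were called higher and 2 lower, beside 3.10% and 2.54% of all genes. At an adjusted p below 0.01 without the fold threshold, 19 were higher and 14 lower, beside 12.1% and 11.2% of all genes. Their median difference was 0.00. For the Arp2/3 complex, 0 of 6 partners of ARPC5 was called in either direction and their differences were -0.39 to 0.21. At an adjusted p below 0.01 without the fold threshold, 1 of the 6 was lower, ARPC1B at -0.39 (adjusted p = 0.00335 from limma). For the tRNA splicing endonuclease, 0 of 3 partners of TSEN15 was called, and TSEN54 and CLP1 were lower under 2-fold, at -0.65 and -0.47 (adjusted p = 4.56e-04 and 0.00239 from limma). For the PAF1 complex, 0 of 5 partners of CDC73 was called, and PAF1 and CTR9 were higher under 2-fold, at 0.49 and 0.37 (adjusted p = 0.00121 and 0.00846 from limma).

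Laminin chains were called in both directions. Of 9 partners of LAMC1, LAMA4 and LAMB1 rose and LAMA5 and LAMB3 fell. LAMB1, the beta 1 chain that pairs with gamma 1, had 10.04, 9.98 and 9.95 in MCF10A and 11.01, 10.99 and 11.07 in MCF10A-SNAI1. Its difference of 1.03 (SE 0.0605, adjusted p = 3.50e-05 from limma) stood beside 1.07 for LAMC1. LAMA4, an alpha chain of mesenchymal and vascular basement membranes, rose from 4.39 to 7.30 (2.91, SE 0.0964, adjusted p = 2.57e-06). LAMA1 and LAMB2 were higher under 2-fold, at 0.63 and 0.76 (adjusted p = 8.15e-04 and 2.38e-04). LAMB3, of the epithelial laminin-332, fell by 4.58 (adjusted p = 1.38e-07), and LAMA5 fell by 1.16 (adjusted p = 1.09e-04, limma).

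Of 24 genes of prostaglandin synthesis and response beside PTGS2 and PLA2G4A, 1 was called higher and 0 lower, and without the fold threshold another 3 were higher and 4 lower, beside the 12.1% and 11.2% of all genes. That gene was PTGFR, the receptor of prostaglandin F2 alpha, which rose from 4.81 to 6.74 (1.93, adjusted p = 4.65e-05 from limma). PTGS1, cyclooxygenase-1, was at 6.56 and 7.24, a difference of 0.68 under 2-fold (adjusted p = 6.64e-04, limma), next to 0.67 for PTGS2. AKR1C3, which reduces prostaglandin D2, was at -0.99, just inside the fold threshold. Of 13 RGS genes outside the run, RGS7 rose by 2.04 (adjusted p = 6.62e-06, limma) and RGS5 by 1.38 (adjusted p = 1.03e-04, limma), and 11 were not called, of which 3 were lower under 2-fold. Of 5 torsin genes and 9 genes of NAD synthesis, 0 was called in either direction. Without the fold threshold, TOR1A at 0.30 was higher and TOR4A at -0.71 lower, NAMPT at 0.42 and NMRK1 at 0.67 were higher and NAPRT at -0.70 was lower, all at an adjusted p below 0.01 in limma. TOR3A, a torsin gene inside the run, differed by -0.07. Of 15 partners of RNF2 in Polycomb repressive complex 1, 0 was called in either direction, and 4 were higher under 2-fold at an adjusted p below 0.01, PHC1 at 0.60, PHC2 at 0.44, PHC3 at 0.42 and CBX7 at 0.36.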

How the data were processed

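Total RNA of 3 MCF10A and 3 MCF10A-SNAI1 samples was hybridised to Affymetrix HuGene-1_0-st-v1 arrays. The authors deposited normalized log2 values for 33297 probe sets. The methods state GC RMA in GeneSpring GX. MAS5, GCOS and Affymetrix Expression Console 1.1 are listed by the submitters' processing notes. The sources used here do not say which of these produced the values, and a background correction could change differences of dim genes. The number of arrays limits the precision.

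Genes were named from 19460 probe sets with 1 symbol, by the probe set with the highest mean over 6 arrays. Another 1754 had several symbols and 12083 were unnamed. Map order came from RefSeq (GRCh38.p14). The array's build is not given, so no probe coordinates are printed. Differences were fitted in R 4.3.3 with limma 3.58.1 on all probe sets, with Benjamini-Hochberg adjustment, and called at an adjusted p below 0.01 and a fold above 2, after the methods. The script was tested on simulated data. The 36 genes, the 9 partner lists and the marker lists were chosen with earlier results of these data known. Every listed gene with a probe set is named. Array values are given where the difference was above 1 in size, for the 3 lowest and 3 dimmest, and for PTGS2, chosen after its values were seen. Partner genes were named where called, and others after their values were seen. Alternatives were array centring, quantile normalization, the replicate block, probe set averaging, a filter on dim probe sets, leaving out arrays, the methods' t-test, trended robust moderation and no fold threshold.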

Additional observations from a re-analysis of the deposited data

How the results depend on the processing

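The median difference of the 36 genes was 0.44 to 0.49 when each array was left out in turn, and 5 genes were called higher each time. With only probe sets above the median level it was 0.46 and 4 of 33 genes were called higher, B3GALT2 being left out. None of the 36 genes changed sign under 10 alternatives. In 358 of 360 values the difference moved by less than 1 SD, but little can be read from that count. Leaving out 1 of 3 arrays cannot move a group mean by 1 SD of that group. The replicate block left each difference as it was, and averaging can change only the 3 genes with several probe sets. The 2 values that moved further came from averaging probe sets, which gave 0.41 for TOR1AIP2 and 0.52 for DENND1B. Single arrays moved the small differences of the 6 overlapping genes by about 1.5 times or more. RGS16 was at -0.44 without MCF10A-SNAI1 replicate 1 and at -0.11 without replicate 3, and IER5 at -0.04 without MCF10A replicate 1, at -0.17 without MCF10A replicate 2 and at -0.07 without MCF10A-SNAI1 replicate 2. ACBD6 was at 0.09 without MCF10A replicate 1 and at 0.21 without MCF10A-SNAI1 replicate 1, STX6 at 0.14 without MCF10A replicate 2 or MCF10A-SNAI1 replicate 1, SOAT1 at 0.27 without MCF10A-SNAI1 replicate 1 and GLRX2 at 0.00 without MCF10A-SNAI1 replicate 2. The unlisted genes of the stretch had a median of -0.02 to 0.01 over the left-out arrays and 0.47 with a filter on dim probe sets, which left 7 of them. A split at the same level without a refit, chosen after seeing the data, also gave 0.47. The flanking genes had medians of 0.00 to 0.06 over the left-out arrays, 0.00 without MCF10A-SNAI1 replicate 1, and 0.13 with that filter, which left 20 of 40. Without the fold threshold 20 of the 36 genes and 19 partner genes were called higher (12.1% of all genes) and 14 partner genes lower (11.2%). With the filter on dim probe sets 1 partner gene was called higher, as 62 of 89 were left. Over the left-out arrays 5 partner genes were called higher and 2 to 3 lower, and the third was AKR1C3, at -1.02 without MCF10A replicate 1 or 2 and at -1.03 without MCF10A-SNAI1 replicate 1. The replicate numbers were shared between the lines. The deviations of same-numbered arrays correlated at 0.115, 0.122 and -0.00618, and those of different-numbered arrays at -0.134 to 0.0340. The main fit did not take same-numbered arrays as pairs, and these values do not settle whether they were. With the replicate number as a block, the median was 0.46. Of the 36 genes 5 were called higher, and of the partner genes 5 were called higher and 2 lower. Over all genes 564 were higher and 464 lower, against 571 and 467. Replicates 1 and 2 of both lines correlated best with their own number, and replicate 3 of both lines did not.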
